A study of Mus musculus with 9 samples.

Results

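The Notch genes followed here were 3 receptors (Notch1, Notch2 and Notch3), 4 ligands (Dll1, Dll4, Jag1 and Jag2) and 3 target genes (Hes1, Hey1 and Heyl), chosen by name and found by Ensembl identifier among the 55471 genes of the count table. All 10 were counted in every mouse and passed the filter on low counts. RNA was sequenced from the gastrocnemius, a calf muscle, at postnatal day 0 to 1, in 5 *Shank3Δ11(−/−)* mice (KO1 to KO5), which lack exon 11 of Shank3 in every cell, and 4 *Shank3(+/+)* mice (WT1 to WT4), all on a C57BL/6 background and with 1 library per mouse. The study left KO2 and KO4 out of its comparison for too few reads, although the deposited counts of KO4 (40471957) were the most of all 9 libraries and those of KO2 (28211941) exceeded those of KO5 (26444372), which was kept, so the genotypes were compared in the other 7 mice and again in all 9. Levels are in CPM, that is, counts divided by a library size corrected with TMM factors over the 9 libraries.

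Notch receptors are single-pass membrane proteins that bind a Delta-like or Jagged ligand on a neighbouring cell. Binding leads to cleavage by ADAM proteases and then by the γ-secretase complex, and the freed intracellular domain joins the DNA-binding protein RBPJ and a Mastermind coactivator to switch on genes of the Hes and Hey families, which encode repressors of transcription. In developing muscle the pathway holds satellite cells, the muscle stem cells, undifferentiated, and in its vessels Dll4, Jag1, Notch1 and Notch3 take part in the dialogue between endothelium and mural cells.

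The libraries held 26444372 (KO5) to 40471957 (KO4) counts, and mitochondrial genes took 3.81% to 7.88% of them. Shank3 ranged from 25.8 to 35.1 CPM in *Shank3Δ11(−/−)* and from 32.5 to 38.5 CPM in *Shank3(+/+)*, and a count over the whole gene does not check the loss of exon 11. For the labelled tissue, 8 genes of muscle fibres summed to 51720 to 58936 CPM in every mouse. Single libraries stood apart in genes of other tissues. The 8 cartilage genes summed to 233 CPM in KO4 against 39.8 to 76.2 CPM in the other mice, the 6 adipocyte genes to 1186 CPM in KO5 against 230.4 to 460.0 CPM, and the 6 erythroid genes to 5780 CPM in KO1 against 1224 to 2195 CPM. The labels give no sex. Xist, the RNA that coats the inactive X chromosome, divided the mice into a class with high values (619 to 926 CPM in KO3, KO5 and the mice WT3 and WT4) and a class with low values (3.23 CPM in KO4 and at most 0.219 CPM in KO1, KO2, WT1 and WT2).

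Start sites of 7 of the 10 genes had a promoter window in the RefSeq table (assembly GRCm38.p6), namely the 3 receptors and the 4 ligands. The 250 bases before each start were searched on both strands for GTGGGAA, the core letters bound by RBPJ, for CACGCG, letters that Hes and Hey proteins bind, and for CACGTG, the E-box. CACGCG and CACGTG share their first 4 letters, and no stretch was counted under both. CACGCG stood in the window of 4 of the 7 genes (Notch2, Dll1, Dll4 and Jag1) and in 7.62% of all 32851 windows. The windows of these genes were rich in G and C, with a median of 65.8% against 52.4% over all windows, and in CG steps, with a median of 18.5 against 6, and the part of this in the match was not tested. GTGGGAA was in none of the 7 and in 5.42% of all windows, and CACGTG in none of the 7 and in 6.02%. Among Notch targets outside the 10 genes, the windows of Hes5 and Hey2 held GTGGGAA. Sequences are shown for the genes with a match, cut where the GENCODE gene begins, with each match in capitals. They run 5′ to 3′ on the strand of the gene, from chr3:98013288-98013526 (+) for Notch2, chr17:15376933-15377182 (−) for Dll1, which has a second start with no match, chr2:119325534-119325783 (+) for Dll4, chr2:137116645-137116770 (−) for Jag1, chr4:154960673-154960922 (+) for Hes5 and chr10:30842802-30843033 (−) for Hey2.
Notch2: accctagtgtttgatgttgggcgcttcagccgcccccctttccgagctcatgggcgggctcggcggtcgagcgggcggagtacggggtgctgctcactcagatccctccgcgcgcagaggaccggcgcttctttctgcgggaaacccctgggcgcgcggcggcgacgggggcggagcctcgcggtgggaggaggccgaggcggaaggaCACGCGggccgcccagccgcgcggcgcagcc
Dll1: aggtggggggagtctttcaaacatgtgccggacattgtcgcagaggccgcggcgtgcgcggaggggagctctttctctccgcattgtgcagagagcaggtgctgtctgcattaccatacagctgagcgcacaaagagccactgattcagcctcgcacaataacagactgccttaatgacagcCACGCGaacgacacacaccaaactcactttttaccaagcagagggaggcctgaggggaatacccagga
Dll4: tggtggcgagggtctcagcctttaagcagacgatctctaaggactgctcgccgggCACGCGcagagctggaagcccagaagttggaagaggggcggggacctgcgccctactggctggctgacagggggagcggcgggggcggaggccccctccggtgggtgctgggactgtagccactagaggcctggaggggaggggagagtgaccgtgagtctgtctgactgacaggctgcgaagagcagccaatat
Jag1: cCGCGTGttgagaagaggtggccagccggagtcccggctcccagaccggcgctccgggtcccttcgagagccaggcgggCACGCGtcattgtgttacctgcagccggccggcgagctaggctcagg
Hes5: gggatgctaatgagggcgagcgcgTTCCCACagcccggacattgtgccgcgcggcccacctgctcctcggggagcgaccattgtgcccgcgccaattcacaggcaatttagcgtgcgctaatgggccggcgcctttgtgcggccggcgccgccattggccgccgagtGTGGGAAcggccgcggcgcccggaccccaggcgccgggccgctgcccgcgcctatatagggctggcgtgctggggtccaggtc
Hey2: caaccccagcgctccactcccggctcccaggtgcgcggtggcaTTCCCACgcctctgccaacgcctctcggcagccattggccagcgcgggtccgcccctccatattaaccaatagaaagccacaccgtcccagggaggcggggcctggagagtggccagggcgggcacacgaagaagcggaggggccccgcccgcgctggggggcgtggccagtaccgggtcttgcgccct
The match began 42 bases before the start in Notch2, 68 in Dll1, 195 in Dll4, 249 and 171 in Jag1, 226 and 83 in Hes5 and 207 in Hey2. The window of Hes6 held none of the 3 motifs, and that of Nrarp held CACGTG only. Hes5 had 12 counts over all 9 libraries and Hey2 ranged from 1.95 to 5.39 CPM. A match in letters is a description of the window and not a binding site.

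Among the receptors Notch3, the receptor best known from vascular mural cells, had the highest CPM. Notch3 (ENSMUSG00000038146, chromosome 17 from 32120820 to 32166852, minus strand, GRCm38) was at 83.4, 118.5, 96.4, 78.2 and 101.1 CPM in KO1 to KO5 and at 109.4, 96.1, 98.3 and 93.9 CPM in WT1 to WT4. KO2 was the highest and KO4 the lowest of the 9 mice, and the 4 *Shank3(+/+)* mice lay between them. Notch2 (ENSMUSG00000027878, chromosome 3 from 98013527 to 98150361, plus strand), a receptor of muscle stem cells among others, was at 84.7, 92.4, 80.3, 71.1 and 83.4 CPM in KO1 to KO5 and at 88.4, 81.8, 88.0 and 78.2 CPM in WT1 to WT4. It was the steadiest of the 10 genes, again with KO2 highest and KO4 lowest. Notch1 (ENSMUSG00000026923, chromosome 2 from 26457903 to 26516663, minus strand) was at 58.6, 73.4, 63.0, 51.6 and 50.4 CPM in KO1 to KO5 and at 62.8, 57.1, 64.3 and 63.3 CPM in WT1 to WT4. The *Shank3(+/+)* mice fell inside the range of the *Shank3Δ11(−/−)* mice for all 3 receptors. Exons of other annotated genes overlap 1482 bases of Notch1, 541 of Notch2, 488 of Notch3, 867 of Dll1 and 214 of Dll4, and since the use of strand in counting is not stated in these sources, reads in such stretches cannot be assigned with certainty. The other 5 genes had no such overlap.

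Of the ligands Jag2, a Jagged ligand, had the highest CPM. Jag2 (ENSMUSG00000002799, chromosome 12 from 112907819 to 112929776, minus strand) was at 76.4, 116.2, 83.7, 73.3 and 84.5 CPM in KO1 to KO5 and at 90.2, 101.1, 75.7 and 80.6 CPM in WT1 to WT4. Its highest value was in KO2 and its lowest in KO4. Jag1 (ENSMUSG00000027276, chromosome 2 from 137081456 to 137116644, minus strand), the other Jagged ligand, was at 39.7, 40.8, 43.5, 58.6 and 43.9 CPM in KO1 to KO5 and at 43.8, 38.4, 43.0 and 38.3 CPM in WT1 to WT4. KO4 stood above all other mice, which lay within 38.3 to 43.9 CPM, and KO4 was also the library with the high cartilage genes. Dll4 (ENSMUSG00000027314, chromosome 2 from 119325784 to 119335962, plus strand), the ligand of sprouting and arterial endothelium, was at 16.4, 16.4, 19.4, 26.5 and 17.7 CPM in KO1 to KO5 and at 15.9, 18.3, 21.9 and 19.9 CPM in WT1 to WT4. KO4 again had the highest value. Dll1 (ENSMUSG00000014773, chromosome 17 from 15367354 to 15376872, minus strand), the ligand that muscle progenitors need, was at 13.5, 19.7, 11.5, 12.0 and 18.8 CPM in KO1 to KO5 and at 16.6, 15.8, 12.4 and 14.1 CPM in WT1 to WT4. Here the *Shank3Δ11(−/−)* mice split into KO2 and KO5 above and KO1, KO3 and KO4 below the *Shank3(+/+)* mean of 14.7 CPM.

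The targets encode basic helix-loop-helix repressors. Heyl (ENSMUSG00000032744, chromosome 4 from 123233556 to 123249875, plus strand), a target active in satellite and mural cells, was at 40.2, 50.2, 34.4, 32.2 and 47.0 CPM in KO1 to KO5 and at 47.0, 47.7, 28.3 and 31.4 CPM in WT1 to WT4. No other member varied as much between mice, and both genotypes held mice above 46 and below 35 CPM. Hes1 (ENSMUSG00000022528, chromosome 16 from 30064384 to 30067796, plus strand), the most widespread of the targets, was at 22.4, 20.7, 19.2, 23.2 and 26.8 CPM in KO1 to KO5 and at 22.3, 24.2, 17.1 and 21.3 CPM in WT1 to WT4. Hey1 (ENSMUSG00000040289, chromosome 3 from 8663359 to 8667256, minus strand), known from endothelium and satellite cells, was at 12.7, 14.7, 13.0, 17.6 and 14.2 CPM in KO1 to KO5 and at 13.3, 17.3, 11.9 and 15.0 CPM in WT1 to WT4. The groups overlapped for each of the 3 targets.

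**Figure D1:**
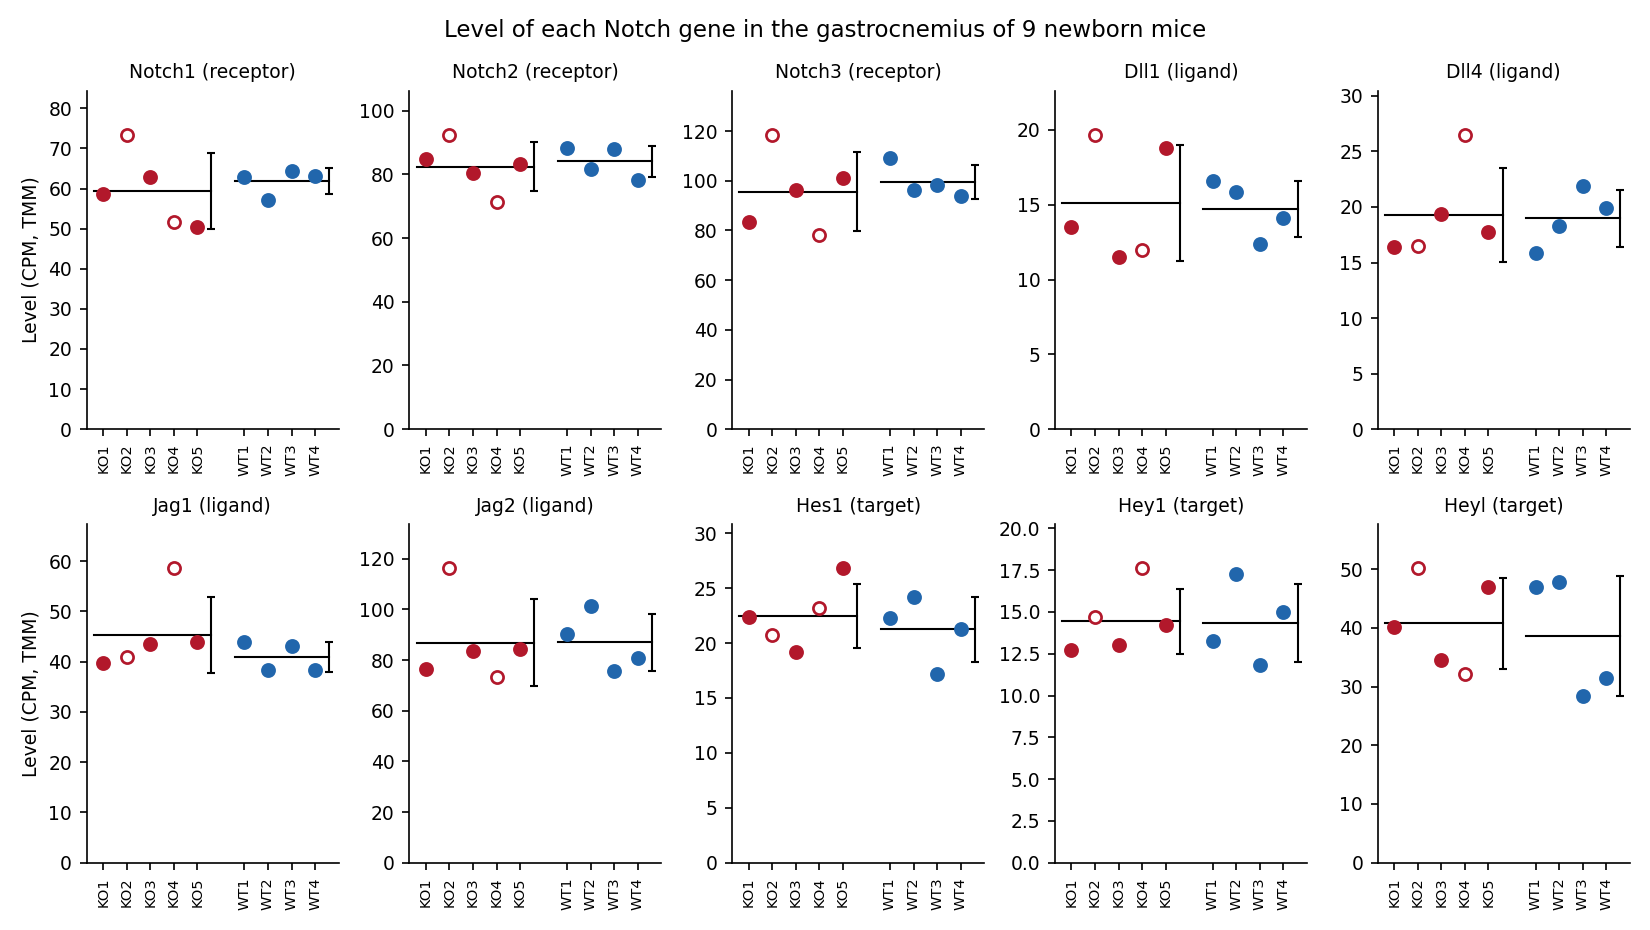
Level of each Notch gene in CPM (linear axes from 0) in 5 *Shank3Δ11(−/−)* (KO, red) and 4 *Shank3(+/+)* (WT, blue) mice, with 1 point per mouse, the mean as a line and the SD as a bar. Open points are KO2 and KO4. KO2 is highest for Notch1, Notch2, Notch3, Dll1, Jag2 and Heyl, and KO4 is highest for Dll4, Jag1 and Hey1. How often these libraries are highest over all genes was not counted.

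Levels of different genes were compared per kb of exon (the union of all annotated exons in GENCODE M21, as the mean over 9 mice with its SD). Jag2 led with 12.5 ± 2.00 CPM per kb, followed by Notch3 with 12.0 ± 1.50, Hes1 with 10.8 ± 1.38, Heyl with 7.79 ± 1.64, Notch2 with 7.71 ± 0.584, Jag1 with 7.44 ± 1.06, Dll4 with 4.97 ± 0.877, Hey1 with 4.41 ± 0.607, Notch1 with 4.25 ± 0.495 and Dll1 with 3.54 ± 0.703 CPM per kb. Neighbours in this order overlapped in their ranges in all 9 cases. Hes1 was above Heyl, and Jag1 above Dll4, in 9 of 9 mice, whereas the order of the other 7 neighbours held in 4 to 8 mice. With the longest transcript as the length, Jag2 remained first and Dll1 last, Hes1 came before Notch3 with 14.9 and 12.1 CPM per kb, and Notch1 moved from 9th to 7th place with 6.38 CPM per kb. Summed per kb, the 4 ligands gave 25.2 to 32.6, the 3 receptors 19.9 to 28.4 and the 3 targets 17.6 to 26.7 CPM per kb over the 9 mice.

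The members differed in their spread between mice. Each had 347 to 3551 counts in a library, for which counting alone gives a coefficient of variation of 1.81% (Notch3) to 4.67% (Hey1), and the coefficient of variation over the 9 separate mice ran from 7.57% for Notch2 to 21.04% for Heyl. On the log2 scale the SD of Heyl was 0.31 and that of Dll1 0.28, above that of 91.0% and 86.5% of the 10878 genes with a mean of at least 10 CPM, whose median SD was 0.17. Notch2 with 0.11 lay below the lower quartile of these genes, 0.13. Bulk RNA cannot tell fewer cells of a type from less RNA per cell, which holds for every level and difference given here.

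Between genotypes no member differed beyond the spread of the mice. In the comparison of KO1, KO3 and KO5 with the 4 *Shank3(+/+)* mice, edgeR's quasi-likelihood test gave 0 of 10 members an unadjusted p below 0.05, where 2.08% of the 21809 genes tested had one, and an FDR of 1.00 for each member. With all 9 mice it was also 0 of 10, against 2.03% of 21735 genes. By the study's own criterion, p below 0.05 with an FDR of 25%, edgeR called 0% of all genes in either comparison, and DESeq2 likewise called 0 members. The study used limma and did report differing genes at this criterion in the 7 mice, and the reason for this difference was not tested. There were also 0 of 10 members whose mice did not overlap between genotypes, where 2.84% of genes did not overlap in the 7 mice and 0.686% in the 9. The intervals of the fold changes bound what could have been missed. The 95% intervals of all 10 members lay within 0.734-fold and 1.41-fold in the 7 mice and within 0.787-fold and 1.38-fold in the 9 mice, so that a doubling or halving falls outside them.

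All 3 receptors had slightly lower fitted levels. The log2 fold change of Notch1 was -0.12 (standard error 0.11, p = 0.297 from edgeR, exact permutation test p = 0.314) in the 7 mice, with means of 57.3 ± 6.36 CPM (SD, n = 3) and 61.9 ± 3.25 CPM (SD, n = 4). Notch2 had a log2 fold change of -0.03 and a 95% interval of -0.24 to 0.18, the narrowest of the 10 members, and Notch3 one of -0.09 with an interval of -0.33 to 0.14. Ligands gave log2 fold changes of -0.02 (Dll1), -0.10 (Dll4), 0.04 (Jag1) and -0.10 (Jag2). With KO2 and KO4 added, Jag1 went from 0.04 to 0.15 (standard error 0.12, p = 0.234 from edgeR, exact permutation test p = 0.357), and KO4 alone accounts for its highest value. Targets stood at 0.09 (Hes1), -0.12 (Hey1) and 0.06 (Heyl). With KO2 and KO4 added, Hey1 went from -0.12 to 0.01 and Dll4 from -0.10 to 0.02, the largest shifts of the 10 members. The median log2 fold change was -0.06 over the 10 members and -0.01 over all genes in the 7 mice, and 0.02 and 0.00 in the 9 mice.

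**Figure D2:**
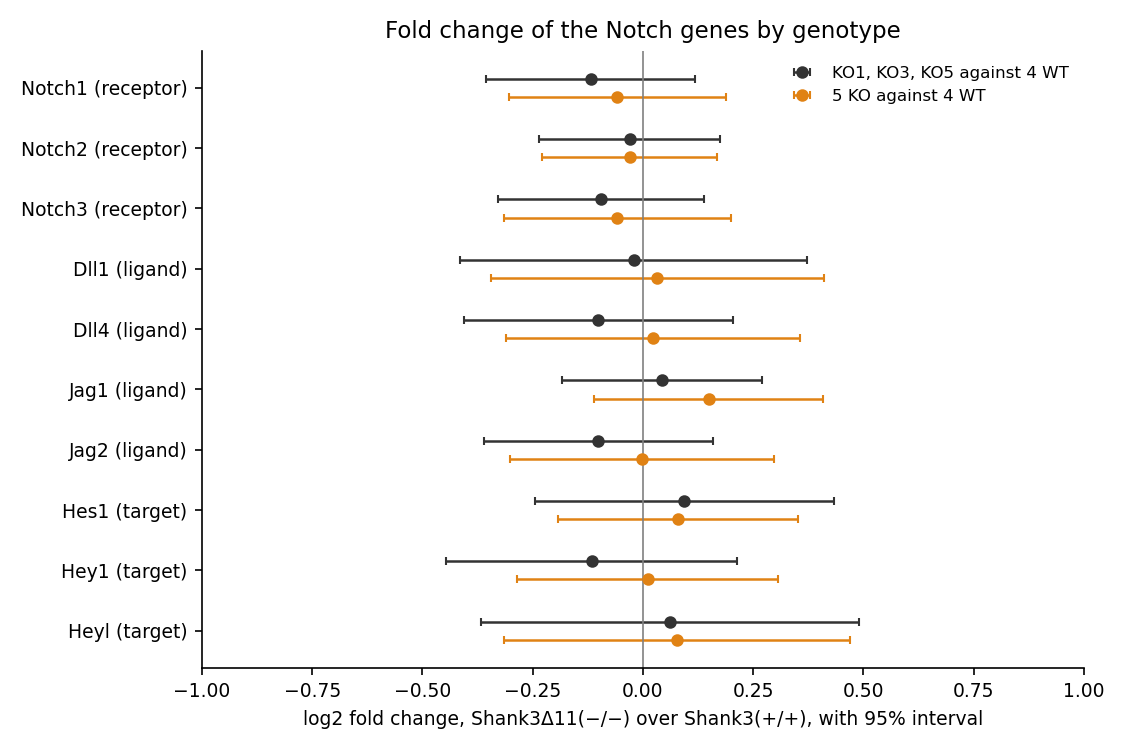
Log2 fold change of each Notch gene between *Shank3Δ11(−/−)* and *Shank3(+/+)* from edgeR, with its 95% interval as a bar, in the 7 mice (dark) and in all 9 mice (orange). Every interval crosses 0, and the widest, that of Heyl in the 7 mice, runs from -0.37 to 0.49.

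Markers of cell types that use the pathway are given beside these values, and their part in them was not tested. Of all genes, 2.08% had p below 0.05 and 47.8% were fitted higher in the 7 mice, and 0 marker genes met the study's criterion. Of 10 genes of satellite cells and myoblasts, 9 had a lower fitted level in the 3 *Shank3Δ11(−/−)* mice and 2 of these had p below 0.05, and the summed level was 614 to 885 CPM in the 5 *Shank3Δ11(−/−)* and 756 to 908 CPM in the *Shank3(+/+)* mice. The 14 endothelial genes summed to 878 to 1279 CPM and 963 to 1060 CPM, with 12 of 14 fitted higher and 0 at p below 0.05. Of 6 genes of arterial endothelium, by contrast, 1 was fitted higher and 5 lower in the 7 mice (median log2 fold change -0.12), and 2 higher and 4 lower in the 9, with 0 at p below 0.05. The 9 mural genes summed to 483 to 613 CPM and 429 to 533 CPM, with 6 of 9 fitted higher and 0 at p below 0.05. With KO2 and KO4 added, 7 of 10 satellite cell genes were lower with 0 at p below 0.05. Outside these cell types, 4 of 5 adipocyte genes tested and 3 of 8 Schwann cell genes had p below 0.05 and were higher in the 3 *Shank3Δ11(−/−)* mice, with KO5 holding the highest sum of both lists. All genes of the first 4 lists were counted in every mouse.

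Of 68 further genes of the pathway, listed by role, 64 passed the filter, and 1 of them in the 7 mice and 1 in the 9 mice had p below 0.05, close to the 2.08% and 2.03% of all genes. In the 7 mice 25 of the 64 had a higher and 39 a lower fitted level, and in the 9 mice 33 and 31. Aph1b, a γ-secretase subunit, was the one in the 7 mice, with 7.65, 7.68 and 10.6 CPM in KO1, KO3 and KO5 and 8.28, 5.17, 5.26 and 5.01 CPM in WT1 to WT4. WT1 lay inside the *Shank3Δ11(−/−)* range, and the log2 fold change was 0.53 (standard error 0.21, edgeR p = 0.0296 with an FDR of 1.00, and p = 0.114 in the exact permutation test). Aph1b and its near copy Aph1c, which had a log2 fold change of 0.56 and an edgeR p of 0.0588, can share reads, so both are uncertain. Dtx1, a Deltex ubiquitin ligase of receptor turnover, was the one in the 9 mice, at 2.35, 2.24, 2.36, 2.29 and 2.66 CPM in KO1 to KO5 and 1.76, 1.48, 2.08 and 1.89 CPM in WT1 to WT4. Its groups did not overlap, and the log2 fold change was 0.40 (standard error 0.16, edgeR p = 0.0306 with an FDR of 1.00, and p = 0.00794 in the exact permutation test, the smallest that 5 against 4 mice can give).

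By role, none of the lists held more than 1 gene with p below 0.05 in the 7 mice. The other receptors and ligands, 7 of 8 tested, ranged from Dlk2 (-0.50, edgeR p = 0.0901, exact permutation test p = 0.143), a non-canonical ligand, to Mfap5 (0.09), a matrix protein that binds Notch. Dlk1, a membrane protein of fetal muscle related to the Delta ligands, was by far the most abundant gene of the pathway with 2846 to 3872 CPM, or 560 CPM per kb, and its log2 fold change was -0.11. Notch4, the endothelial receptor, ranged from 22.7 to 38.4 CPM with a log2 fold change of -0.07, and Dll3 had 7 counts over the 9 libraries. The 10 genes of receptor cleavage ran from Psen2 (-0.27), a catalytic subunit of γ-secretase, to Aph1c. The 7 genes that put sugars on the receptor ran from Lfng (-0.23) to Mfng (0.28), both Fringe enzymes. The 14 genes of ligand endocytosis and receptor turnover ran from Nedd4 (-0.09), a ubiquitin ligase, to Dtx1 (0.44). The 17 genes of the nuclear complex ran from Spen (-0.21), a corepressor, to Cir1 (0.19), another corepressor, and Rbpj itself, at 52.2 to 74.9 CPM, had -0.04. Of 12 other targets 9 were tested, from Hes6 (-0.28), a Hes-family gene of myoblasts, to Bhlhe41 (0.43), and Hes2, Hes3 and Hes5 had 3, 1 and 12 counts in all.

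Covariation of the members over the 9 mice was examined on log2 CPM, with Pearson's r and Spearman's rho for all 45 pairs and an exact permutation p over all 362880 pairings. A total of 10 pairs had an exact p below 0.05 by Pearson's r and 7 by Spearman's rho, and 0 of 45 passed adjustment by either (smallest adjusted p 0.134 and 0.0692). An absolute r of at least 0.7 was reached by 8 of the 45 pairs, or 17.8%, and by 9.03% of all pairs of the 17984 genes with a mean of at least 1 CPM. In the 7 mice it was again 8 of 45 against 13.7% of all pairs, but only 3 pairs were in both sets. Genes of one library share its composition, so pairs are not independent of each other. The permutation p takes the 9 mice as exchangeable, and any structure shared by some of the mice is not allowed for.

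The 3 pairs that kept an absolute r of at least 0.7 in both sets all had Heyl in them. Dll1 and Heyl had r = 0.85 (exact p = 0.00752, adjusted p = 0.134) and rho = 0.73 (exact p = 0.0311, adjusted p = 0.233) over the 9 mice. Their r was 0.78 without KO2 and KO5, the mice farthest from the median of Dll1, and 0.79 in the 7 mice. Jag2 and Heyl had r = 0.77 (exact p = 0.0112, adjusted p = 0.134) and rho = 0.88 (exact p = 0.00308, adjusted p = 0.0692), and r was 0.69 without KO2 and WT2 and 0.71 in the 7 mice. Dll4 and Heyl went in opposite directions with r = -0.76 (exact p = 0.0119, adjusted p = 0.134) and rho = -0.73 (exact p = 0.0311, adjusted p = 0.233), and r was -0.73 without KO4 and WT3 and -0.82 in the 7 mice. For Dll4 and Heyl the mice fell on 2 sides. KO3, KO4, WT3 and WT4 were at 19.4 to 26.5 CPM of Dll4 and 28.3 to 34.4 CPM of Heyl. The other 5 mice were at 15.9 to 18.3 CPM of Dll4 and 40.2 to 50.2 CPM of Heyl. The r of Dll4 and Heyl largely sets these mice against each other, and neither side holds the 6 mice needed for an r of its own. Dll1 was at 11.5 to 14.1 CPM in KO3, KO4, WT3 and WT4 and at 13.5 to 19.7 CPM in the other 5 mice. Jag2 was at 73.3 to 83.7 CPM and 76.4 to 116.2 CPM. The sides thus overlapped for both ligands, and the part of this division in their r with Heyl was not tested.

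Other pairs rested on KO2 and KO4. Notch2 and Notch3 had r = 0.80 (exact p = 0.0110, adjusted p = 0.134) and rho = 0.78 (exact p = 0.0172, adjusted p = 0.233), but r = 0.35 without KO2 and KO4. Notch2 and Dll4 likewise went from r = -0.75 to -0.26, Notch3 and Jag2 from 0.77 to 0.43, and Dll4 and Jag1 from 0.69 to -0.05 in the 7 mice. Notch1 and Hes1, a receptor and its most common target, were inverse, with r = -0.69 (exact p = 0.0379, adjusted p = 0.190) and rho = -0.90 (exact p = 0.00203, adjusted p = 0.0692). Without KO4 and KO5, the mice farthest from the median of Notch1, r was -0.46, and in the 7 mice it was -0.85. Centring on genotype left r of these 3 pairs with Heyl at 0.86, 0.78 and -0.78, and centring on Xist class at 0.87, 0.72 and -0.78.

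**Figure D3:**
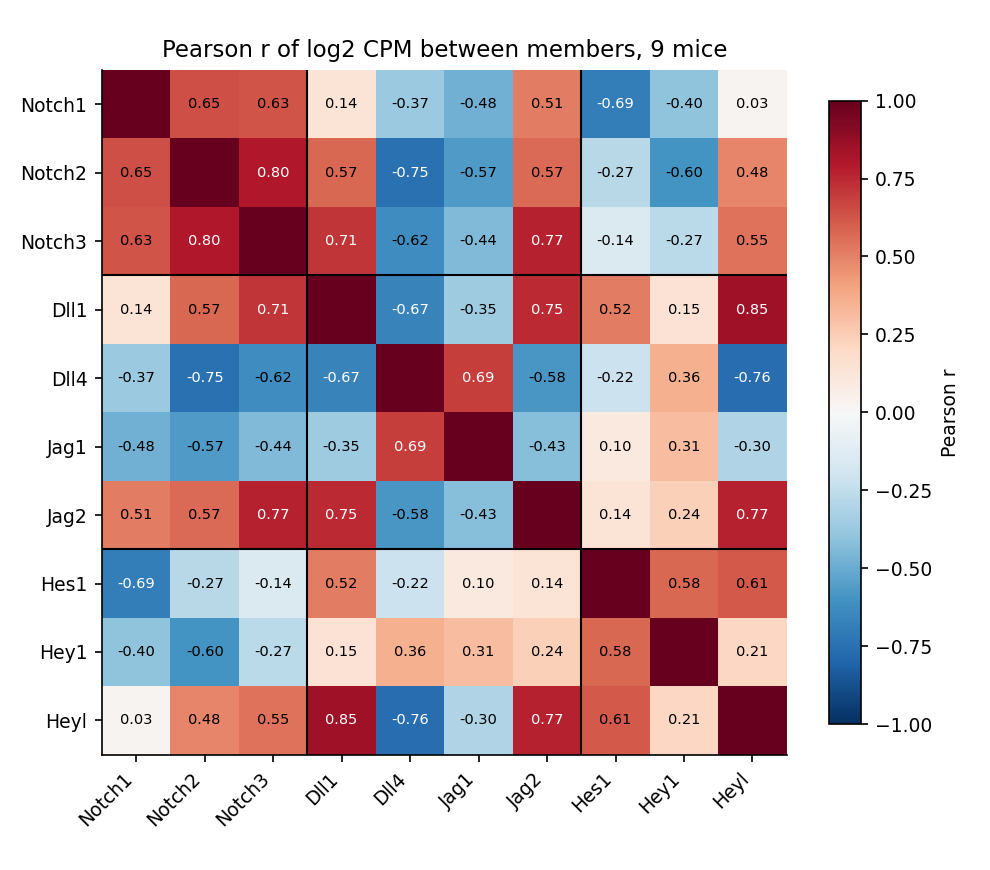
Pearson r of log2 CPM over the 9 mice for each pair of Notch genes, with lines between receptors, ligands and targets. Red is a positive and blue a negative r. Heyl goes with Dll1 (0.85) and Jag2 (0.77), and Dll4 goes against Heyl (-0.76) and Notch2 (-0.75).

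Gene length also differed between libraries. The 1380 longest genes (at least 9.99 kb of exon) less the 1381 shortest (at most 1.74 kb) stood at a mean log2 deviation of 0.24 in KO2, 0.15 in WT1 and WT3, -0.20 in KO4 and -0.32 in WT4. Notch2, with 10.8 kb of exon the second longest member, followed this difference with r = 0.86 (exact p = 0.00274, adjusted p = 0.0274 over the 10 members) and rho = 0.93 (exact p = 0.000750, adjusted p = 0.00750), and r was 0.91 without KO2 and WT4. For the other 9 members the absolute r was at most 0.56 and 0 of 9 passed adjustment. With the difference regressed out, r was 0.82 for Dll1 and Heyl, 0.70 for Jag2 and Heyl, -0.69 for Dll4 and Heyl and 0.76 for Notch2 and Notch3.

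The members were next set beside marker genes of the cells that use the pathway. Against the mean levels of 12 marker lists, 19 of 120 correlations had an exact p below 0.05 and 0 passed adjustment. Endothelial genes went against the receptors, with r = -0.88 for Notch1 (exact p = 0.00275, adjusted p = 0.133) and rho = -0.90 (exact p = 0.00203, adjusted p = 0.243), and r was -0.72 without KO2 and KO4. For Notch2 and Notch3 r was -0.85 and -0.84 and fell to -0.40 and -0.43 without these 2 mice. Genes of satellite cells and myoblasts went with Jag2, with r = 0.86 (exact p = 0.00228, adjusted p = 0.133), rho = 0.83 (exact p = 0.00827, adjusted p = 0.431) and r = 0.84 without KO4 and WT2. The mean of the mural list and Dll4 had r = 0.85 (exact p = 0.00334, adjusted p = 0.133), rho = 0.75 (exact p = 0.0255, adjusted p = 0.464) and r = 0.68 without KO2 and KO4. Jag1 and the cartilage genes had r = 0.88, which rests on KO4 (r = -0.02 without KO4 and WT1).

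Single marker genes were examined after the values of the lists had been seen, in a family of 370 correlations between the 10 members and 37 genes (10 of satellite cells and myoblasts, 14 of endothelium, 9 of mural cells, and Notch4, Hes6, Hey2 and Nrarp). Of these 81 had an exact p below 0.05, 4 passed adjustment by Pearson's r and 2 by Spearman's rho. Pax7, the transcription factor that defines satellite cells, was at 19.3, 32.8, 21.8, 15.9 and 24.2 CPM in KO1 to KO5 and at 27.3, 31.4, 14.7 and 17.0 CPM in WT1 to WT4. The mice with most Pax7 (KO2, WT2 and WT1) also had the most Jag2. Jag2 and Pax7 had r = 0.91 (exact p = 0.000107, adjusted p = 0.0177) and rho = 0.97 (exact p = 0.000165, adjusted p = 0.0306), and r was 0.93 without KO2 and WT3 and 0.91 in the 7 mice. Heyl and Pax7 had r = 0.93 (exact p = 0.000777, adjusted p = 0.0543) and rho = 0.97 (exact p = 0.000165, adjusted p = 0.0306), with r = 0.88 without KO2 and WT3 and 0.91 in the 7 mice. Of the mice lowest in Heyl, KO4, WT3 and WT4 also had the lowest Pax7, whereas KO3 was at 21.8 CPM. The part of this division in the r with Pax7 was not tested. Of the 10 genes of this list, all 10 had a positive r with Jag2 (median 0.61) and 8 with Heyl (median 0.31), and the difference between Jag2 and Heyl was not tested.

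Jag1 went the other way. Its r was negative with all 10 genes of satellite cells and myoblasts (median -0.47) and reached -0.86 with Myog, the factor of differentiating myoblasts (exact p = 0.000143, adjusted p = 0.0177, rho = -0.90, exact p = 0.00203, adjusted p = 0.125). Without KO4 and WT2 the r of Jag1 and Myog was -0.90, and in the 7 mice -0.93. With the mean of the whole list, however, the r of Jag1 was -0.70, and it was -0.07 without KO4 and WT2 and -0.35 in the 7 mice. The r of Dll4 was positive with 10 of 14 endothelial genes (median 0.62). With the mean of the endothelial list it was 0.59 (rho = 0.27), but -0.29 without KO2 and KO4. With the arterial list it was 0.38, but -0.43 without KO4 and KO5. The r of Dll4 was positive with 5 of 9 mural genes (median 0.03, lowest -0.74), although the r with the mean of the mural list was 0.85. The mural genes named next were picked for their r. Dll4 and Notch4 had r = 0.86 (exact p = 0.00175, adjusted p = 0.0605) and rho = 0.93 (exact p = 0.000750, adjusted p = 0.0924), with r = 0.80 without KO1 and WT1 and 0.88 in the 7 mice. Dll4 and Higd1b, a pericyte gene at 1.18 to 3.50 CPM, had r = 0.89 (exact p = 0.000386, adjusted p = 0.0357) and rho = 0.87 (exact p = 0.00451, adjusted p = 0.152), with r = 0.88 without KO4 and WT4 and 0.86 in the 7 mice. For Notch4 and Higd1b, too, KO3, KO4, WT3 and WT4 were the 4 highest mice. The fourth pair to pass, Dll4 and the mural gene Ndufa4l2, is given no r because the mice fell into separate clusters of Ndufa4l2, KO3, KO4, WT3 and WT4 at 34.6 to 52.5 CPM and the other 5 at 9.48 to 13.6 CPM.

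**Figure D4:**
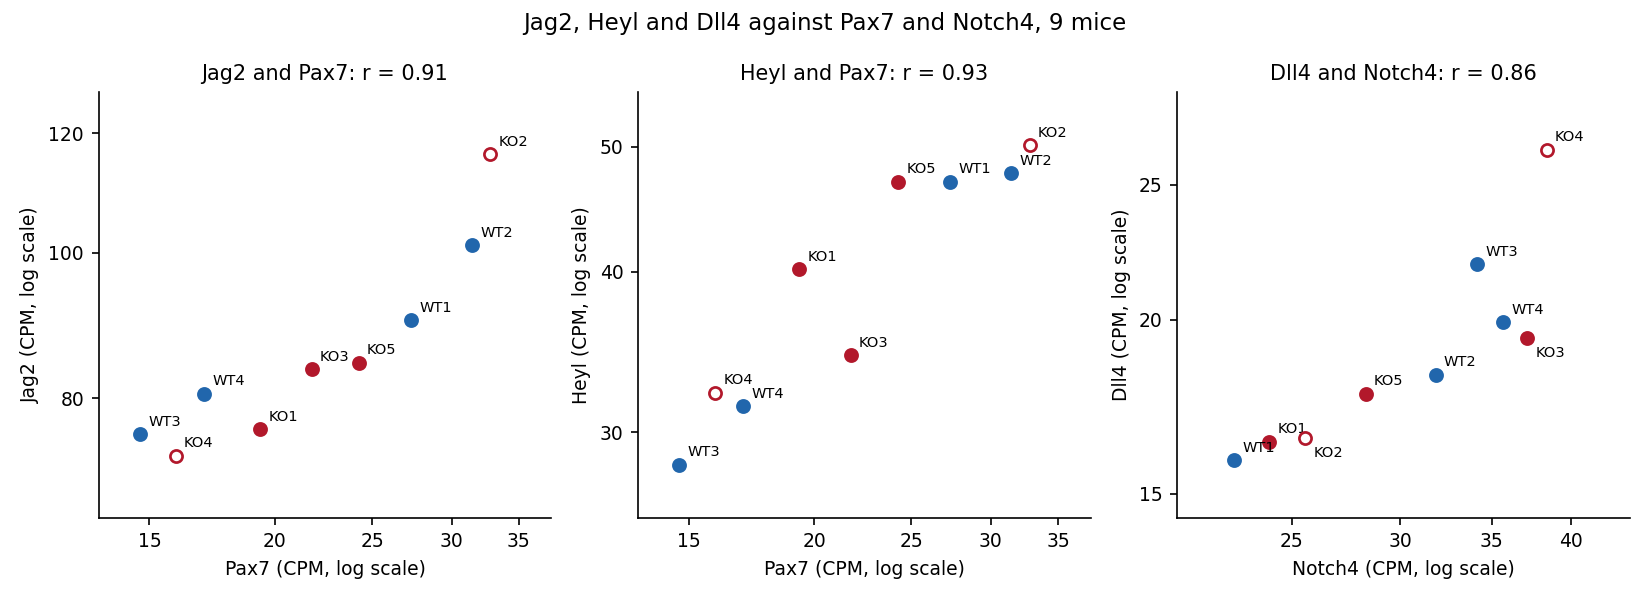
Jag2 and Heyl against Pax7, and Dll4 against Notch4, in CPM on log axes, with 1 point per mouse (red *Shank3Δ11(−/−)*, blue *Shank3(+/+)*, open KO2 and KO4). The r above each panel is Pearson's r of log2 CPM over the 9 mice, 0.91, 0.93 and 0.86, and mice of both genotypes lie along each trend. KO3, KO4, WT3 and WT4 are the lowest mice for Heyl and the highest for Dll4 and Notch4.

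Over all 17984 genes with a mean of at least 1 CPM, the 5 most like each member by Pearson's r over the 9 mice were ranked, as a description. For Heyl these were Sema6a (r = 0.99), Xntrpc and Trpc2, which overlap each other, Eme2 and Lat2. Jag2 was followed by Nckap5l (0.96), Dbx1, Sema6c, Cxxc1 and Wnt11. Dll4 was followed by Naalad2 (0.96), Col11a2, Tox2, 1500009L16Rik and Pcgf1. Around Dll1 stood 9230116N13Rik (0.97), Kcnc2, Ctdp1, Foxo6 and 2900052L18Rik, and around Jag1 Pgm2 (0.94), Dock4, Lyn, Chmp5 and Enpp2. Notch1 was matched best by Gm15774 (0.97), Prob1, Dab2ip, Zfp609 and Prrc2a, Notch2 by B230119M05Rik (0.97), 1110002E22Rik, Trappc10, Clasp1 and Ints3, and Notch3 by Xrcc3 (0.97), 4932443L11Rik, Ppil2, Zfp316 and Lrp4. Hes1 had Eif4ebp3 (0.98), Mif4gd, 5330438D12Rik, Hoxc9 and Hoxa7, and Hey1 had Grasp (0.93), Flywch2, Gm13370, Gm9104 and Gm8557. No member was among the 5 of another.

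Genotype and Xist class were then examined in one model, since the classes are spread unevenly over the 7 mice. No member separated the 5 mice with low from the 4 with high Xist, and the share of all genes that did was not counted. In the test of genotype by Xist class over the 9 mice, 1 of 10 members had an edgeR p below 0.05, where 4.08% of all genes had one. This was Heyl, with a log2 difference between the genotype effects of 0.66 with a standard error of 0.28, an edgeR p of 0.0377 and an adjusted p of 0.980. Among the mice with high Xist, Heyl was at 34.4 and 47.0 CPM in KO3 and KO5 and at 28.3 and 31.4 CPM in WT3 and WT4, a log2 fold change of 0.44 with an edgeR p of 0.0469 and an adjusted p of 0.957. It was again the one member of 10 with p below 0.05, where 5.16% of genes had one. Among those with low Xist it was at 40.2, 50.2 and 32.2 CPM in KO1, KO2 and KO4 and at 47.0 and 47.7 CPM in WT1 and WT2, with a log2 fold change of -0.21 that edgeR's test did not separate from 0. The mice were also divided as given for Dll4 and Heyl, where KO3, KO4, WT3 and WT4 had the lowest Heyl. KO5 was the one mouse with high Xist outside that set and KO4 the one mouse with low Xist inside it, and the part of this split in the difference was not tested. Pax7 stood in the same order, at 21.8 and 24.2 CPM in KO3 and KO5 against 14.7 and 17.0 CPM in WT3 and WT4, and at 15.9 to 32.8 CPM against 27.3 and 31.4 CPM in the mice with low Xist, and its part in the difference of Heyl was not tested. With Xist class as a term, 0 of 10 members had p below 0.05 in the 7 or the 9 mice.

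**Figure D5:**
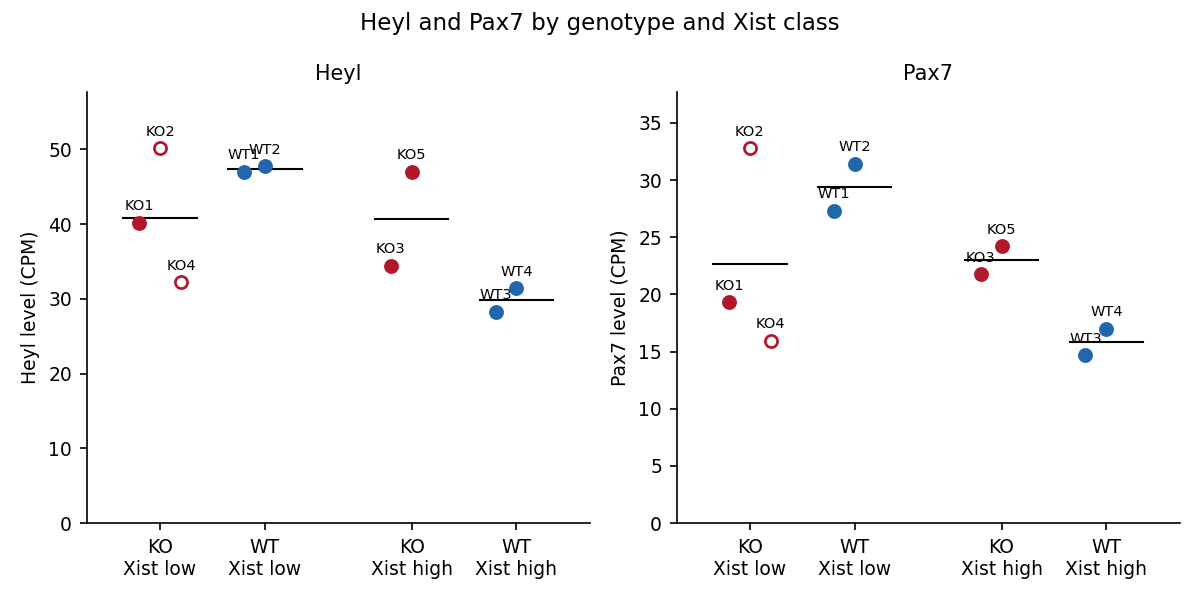
Heyl and Pax7 in CPM by genotype and by Xist class (low, at most 3.23 CPM, and high, at least 619 CPM), with 1 point per mouse and the mean as a line. For both genes the *Shank3Δ11(−/−)* mice with high Xist lie above the *Shank3(+/+)* mice with high Xist, with 2 mice in each group.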

How the data were processed

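The deposited table holds raw read counts per Ensembl gene, which the authors made with HISAT2 on mm10 and featureCounts, without normalization. The sources used here state neither the annotation release nor the strandedness nor how reads with several matches were counted. Symbols and positions came from GENCODE M21 (55230 of 55471 identifiers). The members, the pathway and marker lists and the tests were chosen with earlier results of these data known. Named genes were all members, pathway genes with p below 0.05 and the extremes of each role, the 5 genes most like each member, and marker genes. Of the marker genes, Pax7, Myog, Higd1b and Ndufa4l2 were chosen after their values were seen, and so were the pathway genes Dtx3, Tle2 and Poglut1. Counts were filtered with filterByExpr (minimum count 10, minimum total 15), scaled by TMM and tested with the robust quasi-likelihood test of edgeR 4.0.16 in R 4.3.3, with Benjamini-Hochberg adjustment over all genes. Levels are log2 CPM with a prior count of 2. Permutation tests were 2-sided and exact. The replicates are separate mice, and shared litters are not stated. Alternatives were all 9 mice, other filters and scalings, DESeq2 1.42.0, limma-voom (limma 3.58.1), blocks, Xist class and each mouse left out. Tests were tried on simulated data. Figures used matplotlib 3.10.9.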

Additional observations from a re-analysis of the deposited data

Results flagged for a closer look

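The level of each member was checked in each genotype for a mouse far from the others, in 20 groups of mice, of which chance marks about 1 in 20. Jag1 was at 58.6 CPM in KO4, and its gap to the next *Shank3Δ11(−/−)* mouse was 0.777 of the range of the 5 mice. Jag2 was at 116.2 CPM in KO2, with a gap of 0.739 of the range. KO2 and KO4 are the mice the study left out.

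The genotype effect on Heyl differed between the Xist classes by 0.66 on the log2 scale in edgeR's test of the difference, with 2 or 3 mice in each cell and an FDR of 0.980, so it fails the correction over all genes. The *Shank3Δ11(−/−)* mice were higher in 4 of 4 comparisons of a mouse with another in the high class and in 2 of 6 in the low class. KO5 (47.0 CPM) and KO4 (32.2 CPM) lie apart from the rest of their Xist class in another division of the mice, since Heyl was at 28.3 to 34.4 CPM in KO3, KO4, WT3 and WT4 and at 40.2 to 50.2 CPM in the other 5 mice, and the part of this division in the difference was not tested.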

How the results depend on the processing

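No alternative gave a member an unadjusted p below the threshold or brought any gene of the pathway past the study's criterion. The number of other pathway genes with p below 0.05 was 1 and became 2 with RLE size factors, 3 with limma-voom, 3 with Xist class as a term in the 7 mice and 2 with limma-voom in the 9 mice, and it ran from 0 (without KO5) to 6 (without KO3, or without KO2 of the 9) when single mice were left out. Small fold changes of members crossed 0 without passing a test. For Dll1 the log2 value became 0.033 in the 9 mice, 0.0015 and 0.026 with Xist class as a term in the 7 and the 9 mice, and 0.035 with DESeq2 in the 9. For Dll4 it became 0.023 in the 9 mice, 0.037 with Xist class in the 9, 0.022 with DESeq2 and 0.019 with limma-voom in the 9. For Hey1 it became 0.011 in the 9 mice, 0.011 with DESeq2 and 0.016 with limma-voom in the 9. The cause of these shifts was not tested. With each mouse left out, of the 7 or of the 9, log2 fold changes ran from -0.073 to 0.016 for Notch2, -0.16 to 0.0037 for Notch3, -0.25 to 0.12 for Dll1, -0.17 to 0.10 for Dll4, -0.15 to 0.079 for Jag2, -0.042 to 0.20 for Hes1, -0.19 to 0.11 for Hey1 and -0.061 to 0.20 for Heyl, whereas Notch1 and Jag1 kept their sign.

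Pairs of members with an exact p below 0.05 numbered 10, against 6 in the 7 mice and 5 to 12 with each mouse left out. Adjusted, they numbered 0, and 0 to 1 with each mouse left out. Per kb of the longest transcript, Notch1 came to 6.38, Jag2 to 17.0, Hes1 to 14.9 and Hey1 to 5.94 CPM per kb.

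The replicate numbers are shared by the genotypes. Deviations of same-numbered mice correlated at 0.37, 0.052, 0.36 and 0.10 for the numbers 1 to 4. Mice of different numbers were not compared in this way, so these values cannot decide whether the numbers pair the mice. The main tests took the mice as unpaired. With the replicate block in the 7 mice, the log2 fold change of Dll1 went from -0.02 to -0.21 and that of Notch3 from -0.09 to -0.21, neither passing the test. The other pathway genes with p below 0.05 numbered 2 in the 7 and 0 in the 9 mice under this block, and log2 fold changes that crossed 0 were those of Jag1 (-0.068) and Hey1 (0.033) in the 7 mice and of Dll4 (0.034) and Hey1 (0.019) in the 9.

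With 3 to 5 mice a group, differences smaller than the intervals given for the members were not detectable.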

Other observations

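The mice numbered 3 and 4 in both genotypes stood apart from the other 5 for Dll4 and Heyl, 2 of the 10 members. The share of all genes that divide the mice in this way was not counted, so this is a description of these genes only. Dll4 was at 19.4, 26.5, 21.9 and 19.9 CPM in KO3, KO4, WT3 and WT4 and at 15.9 to 18.3 CPM in the other 5 mice. Heyl was at 34.4, 32.2, 28.3 and 31.4 CPM in these 4 mice and at 40.2 to 50.2 CPM in the others. The pericyte gene Ndufa4l2 and the pathway genes Notch4, Dtx3, Tle2 and Poglut1 split the mice in the same way. The labels name no batch for these numbers, and the split was noticed in the values and was not tested.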
